A study of Mus musculus with 10 samples.

Results

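Whole testes of mice aged 3 days were compared between Ago4+/+ and Ago4-/- littermates of the C57BL/6 strain, with 1 mRNA library of each genotype among the 10 libraries of the series. No other treatment or allele is named for either library, and the number of animals behind each was not stated. The comparison rests on the table in which the authors set the day 3 libraries side by side, with 36806 rows and a level in FPKM (fragments scaled by transcript length and library size) for each library. Genes were kept where the table gave the test status OK and where the level was 1 FPKM or more in at least 1 library, which left 17417 genes. The table names its columns only by number, and none of the sources used here says which column is which genotype. The libraries are therefore called the first and the second library, differences are given as second minus first, and no direction is tied to the loss of Ago4.

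Ago4 encodes a member of the Argonaute family, proteins that hold a microRNA or another small RNA and use it to find target transcripts. Mammals have several Argonautes that load microRNAs made by the nuclease pair Drosha and Dicer, and Ago4 has been linked to male germ cells. In a newborn mouse the testis cords hold Sertoli cells, which divide and make anti-Müllerian hormone, and a small number of germ cells. Those germ cells are prospermatogonia that resume division and settle as the first spermatogonia, while fetal-type Leydig cells, peritubular myoid cells, vessels, stroma and blood-borne cells lie outside the cords. In the mouse testis meiosis begins after this age, though some genes named for meiosis are also transcribed in spermatogonia.

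A log2 difference is the log2 of the level in the second library plus 0.1 FPKM over the level in the first library plus 0.1 FPKM. With 1 library a side there is no replicate, no spread and no test between genotypes, so a gene is counted as different where the libraries were at least 2-fold apart. The authors' deposited table also gives a q-value for each gene from Cuffdiff, which compares these 2 libraries and not the genotypes, and calls by it are those at 0.05 or below. Depth per library is unknown, since no counts were used. In whole tissue, fewer cells of a type and less RNA per cell cannot be told apart. The library kit named in the labels was not described as keeping strand, so genes that overlap another gene cannot be told apart from it, and 7241 of the genes (41.6%) lay in a locus that the table shares among 2 or more genes.

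The libraries were close for most genes. The median log2 difference was 0.05, the quartiles were -0.38 and 0.39, and 69.6% of them were within 1.5-fold. In all, 1962 of 17417 genes were at least 2-fold apart, which is 11.3%. Of these, 645 (3.7%) were higher in the second library and 1317 (7.56%) were lower. In the authors' deposited table, 1114 genes (6.4%) had a q-value of 0.05 or below and were higher in the second library, and 2215 (12.7%) were lower. These shares are the background for each count that follows. Genes with predicted, clone or RNA class names made up 4560 of the genes, and 20.3% of them were 2-fold apart, against 8.06% of the 12857 genes with other names. Among the genes used, 152 were listed at 0 in the first library and 228 in the second. Genes that passed the floor in 1 library alone, 819 in the first and 575 in the second, had to differ and are read with that in mind. The labelled tissue carried its defining genes in both libraries, with the Sertoli cell hormone gene Amh at 617 and 916 FPKM and the germ cell gene Ddx4 at 18.2 and 12.2 FPKM. The scatter of levels shows how the genes lie around equality.

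**Figure D1:**
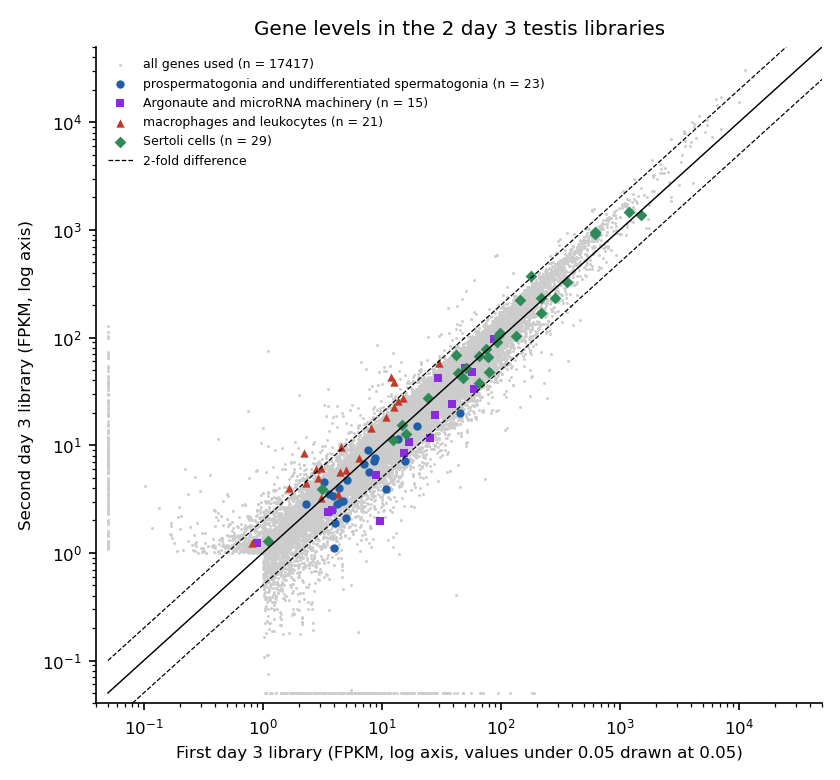
Level of each gene in the first (x axis) and second (y axis) day 3 testis library in FPKM, both axes log, with 4 gene lists coloured, equality as a solid line and 2-fold differences as dashed lines. The leukocyte genes lie mostly above equality and the spermatogonial and Argonaute pathway genes mostly below it, while Sertoli cell genes lie around it.

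Ago4 was found in both libraries at a low level. Under its older symbol, Eif2c4 (ENSMUSG00000042500; chr4:126166785-126210716, in a locus shared by 3 genes), it stood at 0.897 FPKM in the first library and 1.23 FPKM in the second, a log2 difference of 0.42. Ago4 passed the floor through the second library alone, and neither library was without signal. No source used here describes the deleted part of the gene, and the table sums over the gene, so this value does not check either label. In the authors' deposited table the q-value of Ago4 at day 3 was 0.42. The same column order gave a log2 fold of 0.40 in the authors' deposited pre-meiotic table, 0.96 in the leptotene/zygotene table and 1.48 in the pachytene table. The order of genotypes in those tables is not known either.

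The other Argonautes differed more. Ago2 (Eif2c2, chr15:72932055-73015377), the family member that can cut its target, was at 9.61 FPKM in the first library and 1.98 FPKM in the second, a log2 difference of -2.22 or 4.86-fold lower in the second. It was the only Argonaute more than 2-fold apart. Ago1 (Eif2c1, chr4:126112256-126145878) was at 17.1 and 10.8 FPKM, a log2 difference of -0.66. Ago3 (Eif2c3, chr4:126008948-126106800), which neighbours Ago1 and Ago4 on the chromosome, was at 3.55 and 2.42 FPKM, a log2 difference of -0.54. Per length, Ago1 was the most abundant Argonaute in both libraries and Ago4 the least. In the second library Ago2 stood below Ago3 in this order and in the first above it.

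Genes of microRNA production and action were mostly lower in the second library. Of the 17 on the list, 15 were used, 11 of these lay below 0, and the median log2 difference was -0.59, against 0.05 over all genes. Dicer1, which cuts precursors to mature microRNAs, was at 25.2 FPKM in the first library and 11.7 FPKM in the second, a log2 difference of -1.10. Dicer1 and Ago2 were the 2 members at least 2-fold lower (13.3%, beside 7.56% of all genes), and none was at least 2-fold higher. Drosha, which makes the first cut in the nucleus, was at 59.6 and 33.6 FPKM. The scaffold proteins that Argonautes recruit to silence a transcript were lower as well, with Tnrc6a at 38.6 and 24.2 FPKM, Tnrc6b at 9.01 and 5.33 FPKM and Tnrc6c at 15.4 and 8.49 FPKM. Dgcr8, the partner of Drosha, went the other way, at 29.4 and 42.2 FPKM, a log2 difference of 0.52. Tarbp2, a partner of Dicer, was at 87.8 and 97.6 FPKM. By the authors' deposited table, 46.7% of the 15, or 7 genes, had a q-value of 0.05 or below, all lower. The share called lower was 12.7% of all genes. It was 18.3% of genes in loci of 30 to 100 kb and 28.5% in loci of 100 to 300 kb. Lin28b stayed just under the floor at 0.955 and 0.574 FPKM and Mov10 had the status FAIL, so neither was used.

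These genes span long loci, and locus span moved with the difference over the whole table. Genes in loci under 10 kb had a median log2 difference of 0.32 (n = 4864), those of 10 to 30 kb 0.10 (n = 4518), those of 30 to 100 kb -0.14 (n = 4900), those of 100 to 300 kb -0.27 (n = 2334) and those of 300 kb or more -0.15 (n = 801). The share at least 2-fold lower in the second library went from 4.56% in the shortest loci to 16.1% in the longest, and the share at least 2-fold higher from 5.90% to 4.24%. Where a locus held 1 gene, the slope was steeper, from 0.32 in the shortest to -0.53 in the longest bin. Across the 17417 genes, Spearman's rho of locus span with the log2 difference was -0.352. It was -0.442 over 10176 genes alone in their locus, and -0.465 with the gene span that RefSeq gives for GRCm38.p6 (16045 genes). Genes are not independent and share both libraries, so these are descriptions.

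The other tables of the authors did not show a slope of this size. Spearman's rho of locus span with the authors' deposited log2 fold was 0.0043 in the pre-meiotic table, -0.011 in the leptotene/zygotene table and -0.104 in the pachytene table. Level moved with the difference too, from a median log2 difference of -0.11 in genes with a mean under 2 FPKM to 0.34 between 100 and 1000 FPKM and 0.63 in the 114 genes of 1000 FPKM or more. RNA integrity per library was not stated in these sources. What part span, level or RNA quality has in any gene's difference was not tested. Medians of gene lists are therefore also given adjusted for span, which means after the median of the genes in the same of 20 bins of locus span was taken from each gene's value. By that measure the microRNA list had a median of -0.44, and adjusted for the RefSeq gene span instead its median was -0.23. Adjusted for locus span, Ago2 stayed more than 2-fold lower at -1.96 and Dicer1 was under 2-fold at -0.91.

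**Figure D2:**
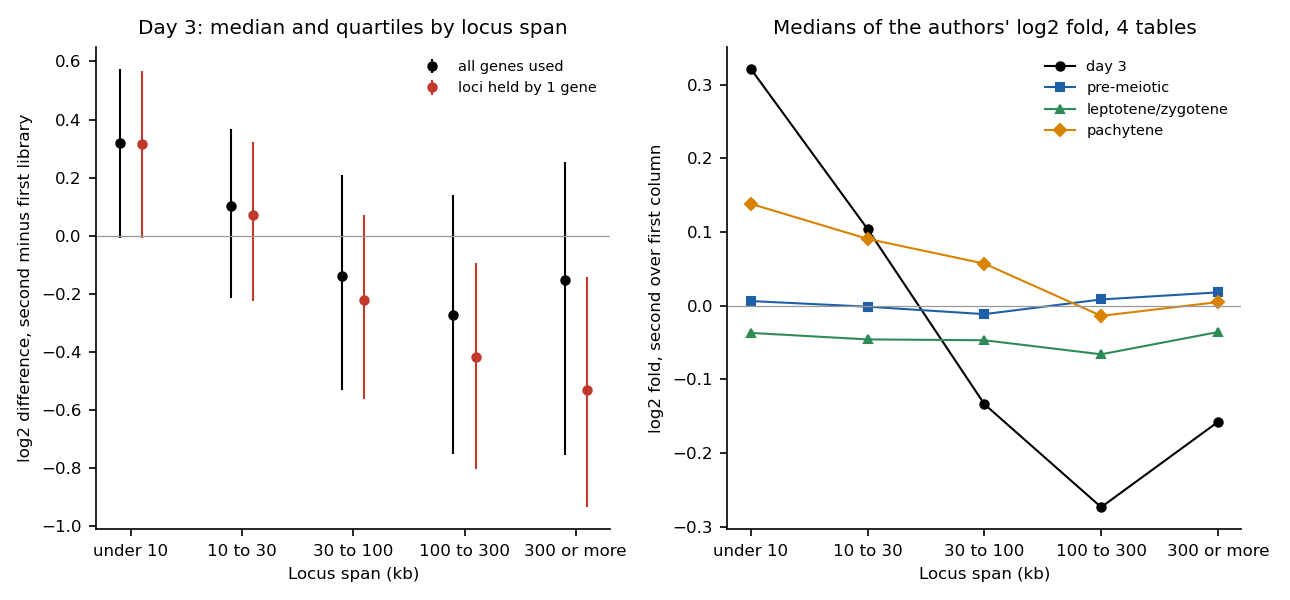
Left, median log2 difference (points) with quartiles (bars) of day 3 genes by locus span in kb, for all genes and for loci held by 1 gene; right, medians of the authors' log2 fold by locus span in their 4 tables. The day 3 medians pass from 0.32 in the shortest loci to -0.27 at 100 to 300 kb, while the other 3 tables stay between -0.07 and 0.14.

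Germ cell genes were lower in the second library as a group. Of 28 genes that mark prospermatogonia and undifferentiated spermatogonia, 23 were used and 20 lay below 0. Of the 23, 6 (26.1%) were at least 2-fold lower, beside 7.56% of all genes. None was at least 2-fold higher, beside 3.7% of all genes. The median log2 difference was -0.39, and -0.51 adjusted for locus span. The summed level of these 23 genes was 198.1 FPKM in the first library and 132.8 FPKM in the second. In the same libraries the median was 0.06 for Sertoli cell genes and 0.87 for leukocyte genes, and the part of tissue make-up in the germ cell values was not tested.

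The 6 spermatogonial genes more than 2-fold lower included both parts of a growth factor receptor. Gfra1, the receptor for the niche factor GDNF, was at 10.9 FPKM in the first library and 3.96 FPKM in the second, a log2 difference of -1.44. Ret, the kinase that signals with Gfra1, was at 15.8 and 7.14 FPKM, a log2 difference of -1.14. Etv5, a transcription factor that acts downstream of this receptor pair, was at 45.6 and 19.9 FPKM, a log2 difference of -1.19. These 3 genes are named because they were past 2-fold. Gdnf, the ligand made by Sertoli cells, was level at 14.7 and 15.3 FPKM. Zbtb16, a repressor needed to maintain spermatogonia, was at 3.94 and 1.098 FPKM, a log2 difference of -1.75. Nanos3, an RNA-binding protein of early germ cells, was at 4.96 and 2.11 FPKM, and Cdh1, an adhesion molecule of undifferentiated spermatogonia, at 4.06 and 1.88 FPKM. Adjusted for locus span, 4 of the 6 stayed past 2-fold, while Etv5 and Cdh1 were under it at -0.9998 and -0.88.

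Other spermatogonial genes did not share the size of these differences. Sall4, a transcription factor of the same cells, was at 19.7 and 14.9 FPKM (log2 difference -0.39), and Pou5f1, a pluripotency factor kept in early germ cells, at 7.76 and 5.67 FPKM (-0.44). Utf1 was at 4.40 and 4.05 FPKM, and Dnd1, which protects germ cell transcripts, at 5.11 and 4.75 FPKM. Id4, linked to stem cells among spermatogonia, was slightly higher in the second library, at 7.73 and 8.97 FPKM. Nanos2, Neurog3, Pax7, Eomes and Dppa3 stayed under 1 FPKM in both libraries.

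General germ cell genes were lower as well, with few large differences. Of 28 on the list, 27 were used, 26 lay below 0 and the median log2 difference was -0.52, or -0.48 adjusted for locus span. Only 2 of them (7.41%) were at least 2-fold lower, near the background share of 7.56%. Ddx4, the germ cell helicase, was at 18.2 FPKM in the first library and 12.2 FPKM in the second, a log2 difference of -0.57. Dazl, an RNA-binding protein needed for germ cell entry into the meiotic path, was at 27.3 and 20.01 FPKM. Mael, a factor in transposon silencing, was at 29.2 and 23.8 FPKM. The genes at least 2-fold lower were Tdrd1, at 5.84 and 2.46 FPKM, and Tex15, at 16.9 and 7.38 FPKM, and adjusted for locus span Tex15 was just under 2-fold (-0.99). Dnmt3l, the partner of the DNA methyltransferases that lay down marks in prospermatogonia, was the 1 member above 0, at 2.83 and 3.90 FPKM.

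Genes of the piRNA pathway, in which Piwi proteins and their small RNAs silence transposons, overlap that list. Of its 20 genes, 18 were used and the median log2 difference was -0.62, or -0.47 adjusted for locus span. Asz1, a mitochondrial anchor of the pathway, was at 12.2 and 4.78 FPKM, a log2 difference of -1.33, and with Tdrd1 was 1 of 2 genes at least 2-fold lower. Those 2 were 11.1% of the 18, beside 7.56% of all genes. The Piwi proteins of this age were both lower, with Piwil2 at 11.1 and 6.00 FPKM and Piwil4 at 3.43 and 1.80 FPKM. Piwil1, which belongs to later germ cells, did not reach 1 FPKM in either library.

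Markers of differentiation and of meiotic entry were low and mostly lower in the second library. Of 20 genes, 15 were used, and the median log2 difference was -0.39 (-0.41 adjusted for locus span). Of the 15, 4 (26.7%) were at least 2-fold lower, beside 7.56% of all genes, and 3 when adjusted for locus span, without Kit. Kit, the receptor that marks differentiating spermatogonia, was at 9.63 FPKM in the first library and 4.16 FPKM in the second, a log2 difference of -1.19. Its ligand Kitl, from Sertoli cells, was at 78.9 and 47.8 FPKM, a log2 difference of -0.72. Stra8, the retinoic acid target that starts the meiotic programme, was near 2 FPKM in both libraries, at 2.15 and 1.99. Ccnd2, a cyclin of dividing spermatogonia that other cells make too, was at 183 and 102 FPKM. Prdm9, which places meiotic breaks, was at 3.94 and 1.46 FPKM and Meioc at 1.61 and 0.618 FPKM. Meioc passed the floor through the first library alone. The retinoic acid list itself (17 used of 22) had a median log2 difference of 0.19, or 0.03 adjusted for locus span, with none 2-fold apart. On that list, Cyp26b1, which destroys retinoic acid, was at 63.6 and 37.7 FPKM and Stra6, a retinol transporter, at 51.3 and 27.5 FPKM, while Aldh1a2, which makes it, was at 15.8 and 24.0 FPKM.

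Genes of leptotene and zygotene cells had a median level of 3.94 FPKM in the first library and 2.73 FPKM in the second. Of 26, 23 were used, with a median log2 difference of -0.50, or -0.36 adjusted for locus span. Of the 23, 6 (26.1%) were at least 2-fold lower, beside 7.56% of all genes. Among them were Mei1 at 1.43 and 0.451 FPKM and Sycp2 at 3.50 and 1.65 FPKM. The 2-fold members ranged from 1.43 to 16.9 FPKM in the first library, 3 genes of the list passed the floor through that library alone, and 3 stayed at least 2-fold lower when adjusted for locus span. Dmc1, Sycp1 and Tex12, which also belong to early prophase, differed by 0.15, 0.13 and 0.09 on the log2 scale. With a floor of 5 FPKM the list kept 8 genes and its median was 0.02. Of 26 markers of pachytene cells and spermatids only 10 were used, with a median log2 difference of -0.07, or -0.33 adjusted for locus span. Among these Cst8, a cystatin known from spermatids and epididymis, was at 43.0 and 134 FPKM, a log2 difference of 1.64, while Tnp1 and Ldhc were at or below 2.06 FPKM in both libraries. Prm2 was listed at 0 in the first library and Prm1 in the second, both under 1 FPKM in the other.

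Sertoli cell genes were near level. Of 30 genes, 29 were used and the median log2 difference was 0.06, beside 0.05 over all genes. The highest of them were Clu, at 1498 FPKM in the first library and 1371 FPKM in the second, and Ctsl, at 1190 and 1454 FPKM. Amh, the hormone of immature Sertoli cells, was at 617 and 916 FPKM, a log2 difference of 0.57, and Inha, the inhibin alpha chain, at 624 and 963 FPKM, a log2 difference of 0.63. Sox9, the transcription factor that sets Sertoli cell fate, was almost equal at 66.1 and 68.1 FPKM, and Gata4, another factor of these cells, was at 286 and 232 FPKM. Only Cst9, a cystatin of Sertoli cells in the young testis, was at least 2-fold apart, at 180 and 374 FPKM, a log2 difference of 1.06. Adjusted for locus span Cst9 was under 2-fold (0.71) and the list median was -0.02. Tjp1, a junction protein, was at 65.8 and 38.2 FPKM, and the transcription factor Wt1 at 134 and 103 FPKM.

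Signals of the niche split between members. Of 29 growth factors and ligands, 27 were used, with a median log2 difference of 0.12, or -0.01 adjusted for locus span. Fgf2, which supports spermatogonia with GDNF, was at 23.6 FPKM in the first library and 6.57 FPKM in the second, a log2 difference of -1.83. Its locus is shared by 10 genes. Inhba, the activin A chain that drives Sertoli cell division, was at 71.5 and 21.1 FPKM, a log2 difference of -1.76. Inhbb, the other activin chain, was level at 94.7 and 104 FPKM. The insulin-like growth factors were lower, with Igf1 at 119 and 65.4 FPKM and Igf2 at 363 and 209 FPKM. Cxcl12, a chemokine that holds germ cells in the niche, was at 148 and 218 FPKM, and Wnt6 at 88.2 and 132 FPKM. Fgf2 and Inhba were the 2 members at least 2-fold lower, 7.41% of the list and near the background share of 7.56%.

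**Figure D3:**
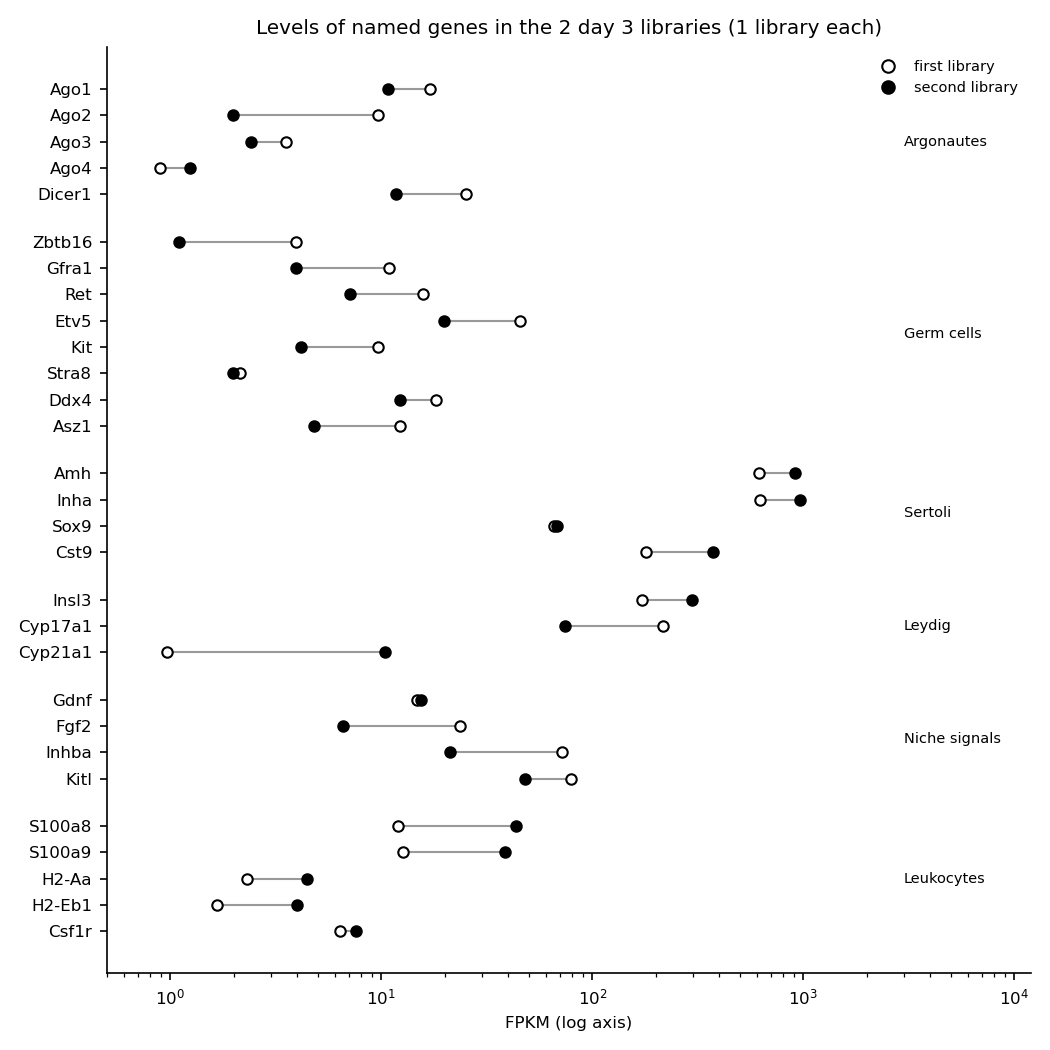
Level in FPKM (log axis) of 29 named genes in the first (open) and second (filled) day 3 library, grouped by role, with a line joining the 2 libraries. Gfra1, Ret and Etv5 were lower in the second library while Gdnf was level, and Cyp21a1 and the S100a genes were higher.

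Leydig cell and steroid genes held differences of both signs. All 23 on the list were used, with a median log2 difference of -0.16. Of these, 1 gene (4.35%, beside 3.7% of all genes) was at least 2-fold higher. Another 4 (17.4%, beside 7.56% of all genes) were at least 2-fold lower, and 3 when adjusted for locus span, without Prlr. Cyp21a1 (chr17:34938298-34941506), the 21-hydroxylase of adrenal steroid synthesis, was at 0.965 FPKM in the first library and 10.4 FPKM in the second, a log2 difference of 3.30. In the authors' deposited tables its log2 fold was 2.89 pre-meiotic, 1.46 at leptotene/zygotene and 0.03 at pachytene. Cyp11b1, another adrenal enzyme, was at 1.66 and 0.687 FPKM. Each of these genes passed the floor in 1 library alone and so had to be higher there. Cyp17a1, which makes androgen precursors, was at 217 and 73.8 FPKM, a log2 difference of -1.55. Star, which carries cholesterol to the first enzyme, was at 53.2 and 35.3 FPKM, whereas that enzyme, Cyp11a1, was at 198 and 211 FPKM. Hsd17b3, the last step to testosterone, was at 189 and 217 FPKM and Hsd3b1 at 340 and 291 FPKM. Insl3, the hormone of testis descent, was at 172 and 298 FPKM, a log2 difference of 0.79. The receptor for luteinising hormone, Lhcgr, was low in both libraries at 5.08 and 3.89 FPKM. Thbs2 and Prlr were the other genes at least 2-fold lower, at 65.5 and 30.6 FPKM and at 11.3 and 5.22 FPKM.

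Leukocyte genes were higher in the second library. Of 23 genes, 21 were used and 20 lay above 0. Of the 21, 6 (28.6%) were at least 2-fold higher, beside 3.7% of all genes and 5.90% of those in loci under 10 kb. None was at least 2-fold lower, beside 7.56% of all genes. The median log2 difference was 0.87, the highest of the 31 lists, and 0.55 adjusted for locus span, where 4 genes stayed past 2-fold. Their summed level was 158.6 FPKM in the first library and 319.2 FPKM in the second.

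The members came from several cell types. S100a8 and S100a9, the paired calcium-binding proteins of neutrophils, were at 11.998 and 43.3 FPKM and at 12.7 and 38.6 FPKM, log2 differences of 1.84 and 1.60. Mcpt4 and Cpa3, proteases of mast cell granules, were at 2.22 and 8.53 FPKM and at 4.51 and 9.55 FPKM. Macrophage genes were divided. Lyz2 was at 30.1 and 58.3 FPKM, Cd68 at 8.15 and 14.5 FPKM, and the complement gene C1qa at 13.7 and 25.7 FPKM. Csf1r, the receptor that macrophages depend on, was at 6.38 and 7.62 FPKM, Adgre1 (F4/80) at 3.07 and 3.24 FPKM, and the scavenger receptor Mrc1 at 4.30 and 3.56 FPKM. The receptors that define resident macrophages thus differed little, at log2 differences of 0.25, 0.07 and -0.27.

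Antigen presentation genes of class II were low and mostly higher in the second library. Cd74, the invariant chain, was at 2.77 and 5.97 FPKM, a log2 difference of 1.08. H2-Eb1, a class II beta chain, was at 1.66 and 3.97 FPKM, a log2 difference of 1.21. H2-Aa, a class II alpha chain, was at 2.30 and 4.42 FPKM, 0.91. H2-Ab1, the partner of H2-Aa, was at 4.998 and 5.86 FPKM, a log2 difference of 0.23. Class II promoters are known for a shared set of boxes upstream of the start, one of which, the Y box, holds the letters CCAAT or, on the other strand, ATTGG. The promoters of the pair of genes that RefSeq's table holds are printed because both genes had higher values in the second library. Each runs 5′ to 3′ along the gene from 120 bases before to 20 bases from the start, in GRCm38.p6, with every CCAAT and ATTGG in capitals. H2-Aa is at chr17:34287804-34287943 on the minus strand and H2-Eb1 at chr17:34305747-34305886 on the plus strand.
H2-Aa: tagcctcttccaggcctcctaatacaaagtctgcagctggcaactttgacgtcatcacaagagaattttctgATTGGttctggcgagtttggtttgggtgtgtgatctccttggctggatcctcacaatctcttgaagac
H2-Eb1: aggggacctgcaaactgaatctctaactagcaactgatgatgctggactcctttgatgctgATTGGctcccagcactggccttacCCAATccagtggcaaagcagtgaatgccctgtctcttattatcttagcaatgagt
The H2-Aa window holds 1 copy and the H2-Eb1 window 2. A window of these 140 bases holds the letters on either strand in 23.1% of 32851 promoters, and a match is not evidence of binding.

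Mast cell proteases were also gathered by name (Mcpt, Tpsa, Tpsb, Tpsg, Cpa3, Cma1), a set chosen after the values were seen. The 7 used had log2 differences from 0.99 to 4.02 with a median of 1.33, or 1.04 adjusted for locus span. Of these, 6 (85.7%, beside 3.7% of all genes) were at least 2-fold higher, and 4 when adjusted. Cpa3 and Mcpt4 are on the leukocyte list too. Tpsg1 was the 1 gene of the set that passed the floor through the second library alone and had to be higher there. Mcpt2 was at 1.27 and 8.95 FPKM, a log2 difference of 2.72. Tpsg1, a tryptase and the source of the value of 4.02, was listed at 0 in the first library and at 1.52 FPKM in the second. Chi3l3, a chitinase-like protein of activated macrophages, was at 0.0209 and 2.74 FPKM, and Saa3, an acute phase protein, at 0.765 and 4.97 FPKM. Chi3l3 and Saa3 also passed the floor through the second library alone and had to be higher there. Slpi, a protease inhibitor of neutrophils and epithelia, was at 1.86 and 10.7 FPKM. Class I genes, which most cells carry, had higher values too, with B2m at 83.2 and 155 FPKM (log2 difference 0.89) and H2-K1 at 18.2 and 28.3 FPKM (0.63). The interferon list that holds them had a median log2 difference of 0.22 over 20 of 28 genes, or 0.00 adjusted for locus span, and none was 2-fold apart. Blood as such was nearer level, with the globin Hba-a1 at 524 and 592 FPKM and Hbb-b1 at 359 and 516 FPKM.

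Other tissues that a dissection could carry were measured beside these. Epididymal and mesothelial genes (11 used of 20) had a median log2 difference of 0.38, or 0.15 adjusted for locus span, with the keratin Krt8 at 15.8 and 23.1 FPKM. Pax2 and Lrrn4 of that list had lower values in the second library, at 2.38 and 1.16 FPKM and at 3.24 and 1.67 FPKM. Cldn3 was its 1 member 2-fold apart, at a log2 difference of 1.05 (9.09% of the list, beside 3.7% of all genes higher). None of that list was at least 2-fold higher when adjusted for locus span. Of the adipose list only 6 of 14 genes were used, and all 6 lay above 0. Their median log2 difference was 0.47, or 0.49 adjusted for locus span, and 1 of them passed the floor through the second library alone. The defining Adipoq, Lep and Pparg were under 1 FPKM in both libraries. Fabp4, which fat and vessel cells share, was at 2.05 and 6.10 FPKM. Skeletal muscle genes (14 used of 22) had a median of 0.30, or 0.15 adjusted for locus span, with Acta1 at 18.2 and 17.3 FPKM and Tnni1 at 32.4 and 53.7 FPKM. Tnnc1 was the 1 muscle gene 2-fold apart, at a log2 difference of 1.35 (7.14% of the list, beside 3.7% of all genes higher). The part of these tissues in the differences above was not tested.

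Endothelium, myoid cells and stroma were near level as lists. Their median log2 differences were 0.18 (15 of 15 used), 0.03 (14 of 16) and -0.22 (24 of 24), and 0.10, -0.05 and -0.11 adjusted for locus span. Tek, a receptor of vessel cells, was at 8.22 and 3.47 FPKM, while Cldn5, a junction protein of the same cells, was at 13.1 and 16.3 FPKM. Myh11, the myosin heavy chain of smooth muscle, was at 69.8 and 28.1 FPKM, and the actin Acta2 at 601 and 599 FPKM. Among matrix genes Fbn1, a long gene, was at 106 and 52.8 FPKM and Col1a1 at 1759 and 1037 FPKM, whereas Dcn was at 428 and 555 FPKM and Vim, the intermediate filament of stromal cells, at 2253 and 3391 FPKM. Collagens as a family named by symbol (39 genes, chosen after the values were seen) had a median of -0.33, or -0.15 adjusted for locus span.

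**Figure D4:**
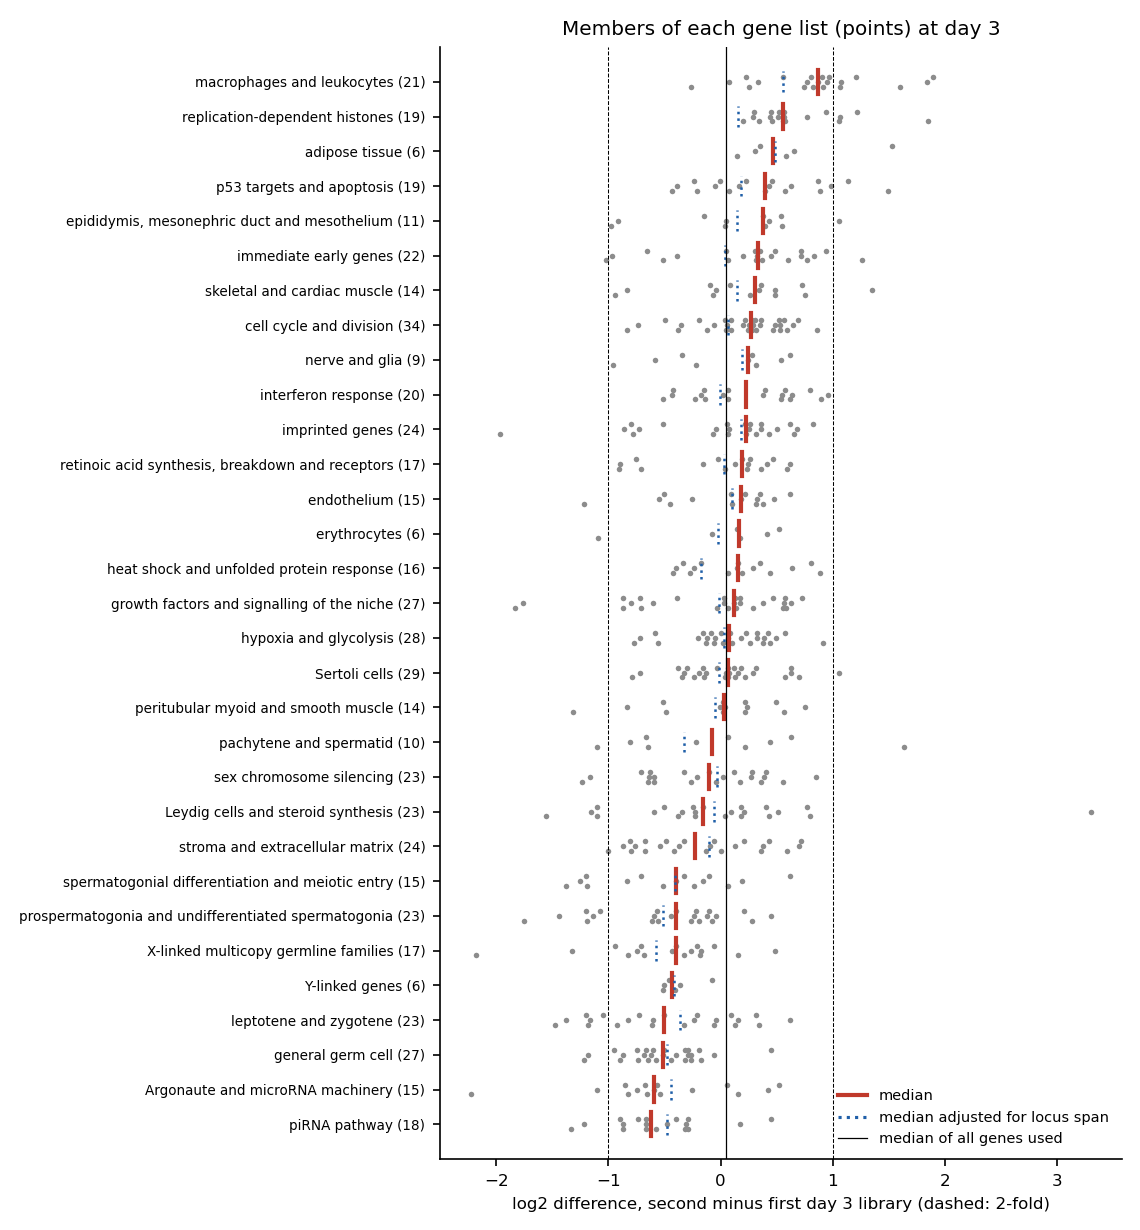
Log2 difference, second minus first day 3 library, of each used member (points) of 31 gene lists, with the number used in brackets, the list median (solid) and the median adjusted for locus span (dotted). The leukocyte median is highest at 0.87, and the spermatogonial, general germ cell, piRNA and microRNA medians lie between -0.39 and -0.62. That of the 10 pachytene and spermatid genes used is at -0.07, or -0.33 adjusted for locus span.

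Stress and growth lists held few genes 2-fold apart. Immediate early genes, which respond to handling within minutes, had a median log2 difference of 0.34 over 22 genes and of 0.04 adjusted for locus span. Fos was at 4.76 and 8.21 FPKM and Egr1 at 57.9 and 40.5 FPKM, and Klf2 (11.98 and 28.8 FPKM) and Egr3 (2.28 and 1.07 FPKM) were the members 2-fold apart. Among 19 targets of p53 and apoptosis genes the median was 0.40, or 0.18 adjusted for locus span. Of these, 2 (10.5%, beside 3.7% of all genes) were at least 2-fold higher, 1 of them also when adjusted, and none was at least 2-fold lower. Fas, the death receptor, was at 1.37 and 4.04 FPKM, Bbc3, which encodes the killer protein PUMA, at 5.81 and 12.9 FPKM, and Cdkn1a, the p21 cell cycle brake, at 6.96 and 13.9 FPKM. Mdm2 and Pmaip1, targets of the same factor, were lower instead, at 46.3 and 40.0 FPKM and at 10.1 and 8.55 FPKM. Cell cycle genes (34 of 34 used) had a median of 0.27, or 0.07 adjusted for locus span, with Cdk1 at 242 and 359 FPKM, Mki67 at 55.1 and 33.1 FPKM, and none 2-fold apart.

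Imprinted genes showed both signs. Of 27, 24 were used, with a median log2 difference of 0.22. Zim1, a zinc finger gene beside Peg3, was at 25.3 FPKM in the first library and 6.40 FPKM in the second, a log2 difference of -1.97. Peg3 itself was at 117 and 67.8 FPKM and Plagl1, a growth regulator, at 285 and 172 FPKM. H19 was at 1750 and 1706 FPKM, while Igf2, its reciprocally imprinted neighbour, was lower as given above. Meg3 and Dlk1, another such pair, were both higher, at 1387 and 1782 FPKM and at 1149 and 1547 FPKM.

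Small abundant housekeeping proteins were higher in the second library. These families were chosen by symbol alone after the values were seen, so a gene that only shares such a name, as Psmc3ip does, is counted too. Cytosolic ribosomal protein names (179 genes, copies and pseudogenes included) had a median log2 difference of 0.61, or 0.31 adjusted for locus span, and 174 of them lay above 0. Subunits of NADH dehydrogenase had 0.59 (39 of 39 above 0) and those of cytochrome oxidase, the bc1 complex and ATP synthase 0.52 (42 of 45). Mitochondrial ribosomal proteins had 0.42 (79 of 80) and proteasome subunits 0.33 (39 of 43). Adjusted for locus span, these 4 medians were 0.41, 0.31, 0.29 and 0.17. Zinc finger genes named Zfp, the largest family, had -0.16, or -0.26 adjusted for locus span, with 213 of 337 below 0. Of the 337, 29 were at least 2-fold lower (8.61%, near the 7.56% of all genes). None was at least 2-fold higher, beside 3.7% of all genes. The replication-dependent histones, whose genes are short, had 0.55 over 19 of 28, and 0.16 adjusted for locus span. Adjusted for span and level together (10 bins of span, each split into 5 by level), cytosolic ribosomal protein names had a median of 0.19. NADH dehydrogenase had 0.32, the oxidase and synthase group 0.16, mitochondrial ribosomal proteins 0.20, proteasome subunits 0.11, Zfp names -0.24 and histones 0.32. The part of span and of level in these medians was not tested apart from these adjustments.

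The sex chromosomes were looked at because the title of the series concerns their silencing, which takes place in later cells. The 956 X-linked genes had a median log2 difference of -0.00042 beside 0.05 for 16451 autosomal genes. Adjusted for locus span, these medians were -0.13 and 0.01. On the X, 26 genes were at least 2-fold higher (2.72%) and 91 at least 2-fold lower (9.52%), and on the autosomes 619 (3.76%) and 1226 (7.45%). The 10 Y-linked genes had a median of -0.39, and none was 2-fold apart.

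X-linked genes at least 2-fold apart and called by the authors' deposited q-value included long, widely expressed genes. Huwe1, a ubiquitin ligase, was at 265 FPKM in the first library and 70.5 FPKM in the second. Atrx, a chromatin remodeller, was at 107 and 29.7 FPKM, and Usp9x at 36.4 and 12.8 FPKM. Ddx3x, a helicase in a shorter locus, was at 155 and 68.0 FPKM, and its Y-linked copy Ddx3y at 23.4 and 16.5 FPKM. Germ cell genes among them were Usp26, a deubiquitinase of the testis, at 2.93 and 0.569 FPKM, and Tktl1 at 4.63 and 1.79 FPKM. Usp26 passed the floor through the first library alone. The list of multicopy germline families on the X (17 used of 28) had a median of -0.40, or -0.57 adjusted for locus span. Its copies share reads, so their single values are uncertain. The list of genes for sex chromosome silencing (23 of 23 used) had a median of -0.10. On it H2afx, the histone variant that is phosphorylated at the XY body, was at 96.3 and 174 FPKM.

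The lowest and highest differences outside predicted names were read by a rule on size and on the authors' deposited q-value. The lowest included signalling and transcription genes of no single tissue. Msmp was at 7.01 FPKM in the first library and listed at 0 in the second, in a locus of 5 genes. Braf, a kinase of the growth factor cascade (chr6:39523872-39675462, a locus of 5 genes), was at 73.8 and 4.83 FPKM, a log2 difference of -3.91. Aak1, a kinase of vesicle uptake alone in its locus (chr6:86799511-86941858), was at 13.9 and 0.975 FPKM, -3.71. Zyg11a, an entry named Nav1 (ENSMUSG00000090399), Zfp871 and Hlf followed, with log2 differences from -3.24 to -2.99. Adnp, a chromatin protein, was at 43.4 and 6.48 FPKM and the kinase gene Abl2 at 8.18 and 1.13 FPKM. The loci of these 15 genes span from 17.1 kb to the 1195.6 kb of Prkg1, which was at 2.14 and 0.247 FPKM. Among the genes named here, Msmp, Aak1, Zyg11a, Nav1, Hlf and Prkg1 passed the floor through the first library alone and had to be higher there.

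The highest included short genes and genes that share a locus with a copy. A second entry named Mier2 (ENSMUSG00000091854) was listed at 0 in the first library and at 4.33 FPKM in the second. Zswim2, a gene of the testis, was at 0.0273 and 2.60 FPKM, Ly6g5b at 1.01 and 14.4 FPKM and Krtap17-1 at 0.200 and 2.70 FPKM. Nov, a matrix signalling protein now called Ccn3, was at 0.869 and 5.78 FPKM, and Steap1, a metal reductase, at 0.461 and 3.03 FPKM. Mapkapk3, a stress kinase, was at 3.41 and 18.6 FPKM, a log2 difference of 2.41. Entries under the symbols Ndufb8 and Cox16 were at 3.29 and 23.9 FPKM and at 0.506 and 3.40 FPKM. Both lie in loci with other genes (3 and 10), where reads may be split between entries. The entries for Mier2, Zswim2, Krtap17-1, Nov, Steap1 and Cox16 passed the floor through the second library alone and had to be higher there.

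The highest levels of all were mostly clone and microRNA-named entries. AC147020.1 was at 11251 FPKM in the first library and 30472 FPKM in the second, a log2 difference of 1.44, and mmu-mir-2133-2 at 7133 and 17040 FPKM. Of the 10 highest, 9 carry such names, and their log2 differences ran from 0.62 to 1.44. The other was Eef1a1, the translation factor, at 7034 and 8658 FPKM. The entry of AC147020.1 spans 105 bases, so its value per length depends on few positions, and copies of a repeated sequence share reads, so these entries are uncertain.

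Genes at day 3 were also read in the other 3 tables. Of 3310 day 3 genes called by the authors' deposited q-value with a finite ratio, 80 were called in the authors' pre-meiotic table (38.5% of its 208 calls among the day 3 genes used), with 41 in the same column direction and 39 in the opposite. The leptotene/zygotene table shared 89 calls (30.2% of 295), 57 in the same direction, and the table for pachytene cells had 83 in common (34.6% of 240), 56 in the same direction. Of all genes with a finite ratio in both tables, between 20.2% and 20.9% were called at day 3, which is the background for these shares. Spearman's rho between the log2 folds of day 3 and these tables was 0.015, 0.035 and 0.145.

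Genes called in all 4 of the authors' deposited tables were Ndufs5, Hdac1 and Rpl29. Ndufs5, a subunit of NADH dehydrogenase (chr4:123389953-123395445), was at 47.6 FPKM in the first day 3 library and 142 FPKM in the second. In the authors' deposited tables its log2 fold was 1.58 at day 3, 3.08 pre-meiotic, 2.32 at leptotene/zygotene and 2.55 at pachytene. Hdac1, a histone deacetylase (chr4:129193348-129219957), was at 37.4 and 58.0 FPKM at day 3, and its log2 folds were 0.63, 1.05, 1.16 and 1.28 in the authors' deposited tables. Both lie on chromosome 4, as Ago4 does, Ndufs5 at 2.77 Mb and Hdac1 at 2.98 Mb from it. Rpl29, a ribosomal protein with many copies, had log2 folds of -2.48, 3.58, 2.63 and 2.79 in the same tables, so its day 3 value alone was lower in the second column. On chromosome 4 as a whole, 58 of 1305 genes were at least 2-fold higher (4.44%) and 130 at least 2-fold lower. Between 120 and 130 Mb, 13 of 150 were at least 2-fold higher (8.67%) and 11 at least 2-fold lower (7.33%).

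**Figure D5:**
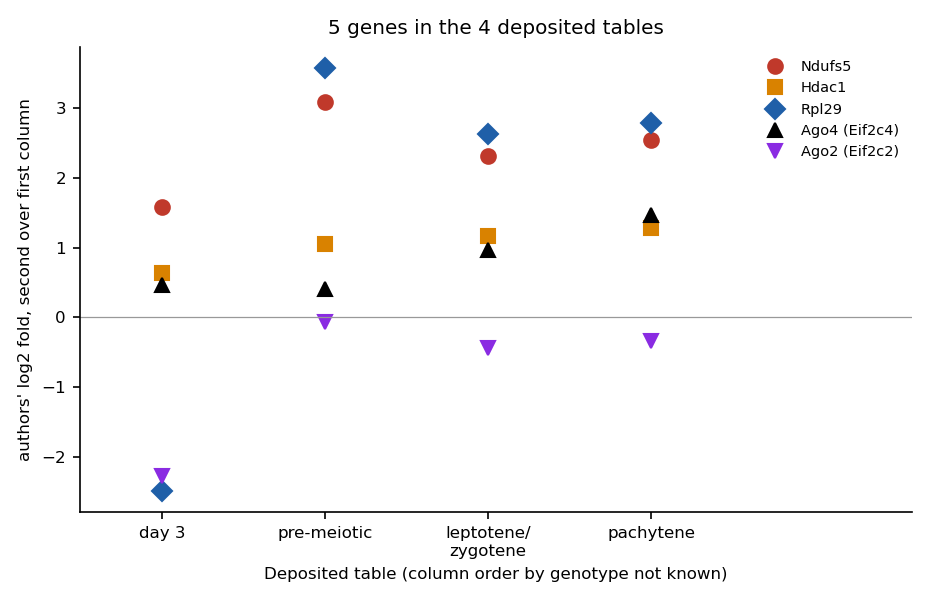
The authors' log2 fold, second over first column, of Ndufs5, Hdac1, Rpl29, Ago4 and Ago2 in their 4 tables, where the order of the genotypes is not known. Ndufs5, Hdac1 and Ago4 are above 0 in all 4 tables, and Rpl29 is below 0 at day 3 only.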

How the data were processed

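Messenger RNA of whole testis was sequenced from 1 library of each genotype at day 3. The authors deposited FPKM per library and gene and, per the file headers, a p-value, a q-value and a log2 fold score for the pair, in which infinite ratios are written as extreme numbers. Cuffdiff, Cufflinks 1.1.0, Bowtie 0.12.7 and TopHat 1.3.0 are the tools named, per the submitters' processing notes. Of the build, the sources used here say nothing. Loci are printed as deposited, with starts counted from 1. The log2 difference used a pseudocount of 0.1 FPKM and a floor of 1 FPKM in either library. Per-condition FPKM of the other 3 tables (6 columns) were not used.

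Members and the 31 gene lists were chosen with earlier results of these data known. Named genes are the Argonautes, the 15 highest and 15 lowest differences past the authors' q-value of 0.05 without predicted names, the 10 highest levels, list members past 2-fold, farthest from 0 or of highest level, and X-linked and Y-linked genes past both thresholds. Other genes named with their values were chosen after these were seen. Of 36806 gene IDs, 31840 matched a current symbol. Scripts were tested on simulated data and ran in Python 3.11.15 with pandas 2.3.3, numpy 2.4.6 and scipy 1.17.1. Some items are not reported here. Alternatives covered pseudocounts, floors, status, shared loci, centring, span and the q-value threshold.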

Additional observations from a re-analysis of the deposited data

Results flagged for a closer look

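Some genes named at day 3 were called by the authors' q-value in the opposite column direction in another table. This difference between stages was not tested, and the order of the genotypes in each table is not known. Lower in the second day 3 library and higher in the second column elsewhere were Adnp, with a log2 difference of -2.73 at day 3 and the authors' deposited log2 fold of 1.66 at leptotene/zygotene, and Rpl29, with -2.44 and 3.58 in the pre-meiotic table. Myh11, a smooth muscle myosin, had -1.31 at day 3 and 2.11 at leptotene/zygotene in the authors' deposited table. Col1a1, a collagen of stroma, had -0.76 at day 3 and 0.42 in the pre-meiotic table, and Pecam1, of vessels, had -0.55 and 2.48 at pachytene. Hspa8, a chaperone, had -0.34 at day 3 and 0.26 in the pre-meiotic table.

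Higher in the second day 3 library and lower in the second column elsewhere were H2-K1, with 0.63 at day 3 and the authors' deposited log2 fold of -1.10 at leptotene/zygotene, and Lpl, a lipase of fat and muscle, with 0.65 and -1.40 in the pre-meiotic table. Fabp4 had 1.53 at day 3 and -1.29 in the pre-meiotic table, and Mapkapk3 had 2.41 and -1.42. The clone-named entries AC124346.1, AL928940.2 and AC147020.1 had 0.96, 1.29 and 1.44 at day 3 and -2.50, -2.46 and -2.53 at pachytene in the authors' deposited table.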

How the results depend on the processing

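No paired analysis was possible because each genotype has 1 library at day 3 and the columns carry no replicate number, and for the same reason no library could be left out. The 645 genes at least 2-fold higher became 421 with a pseudocount of 1 FPKM, 1220 with a floor of 0.1 FPKM, 366 with a floor of 5 FPKM, 333 in loci held by 1 gene, 387 adjusted for RefSeq gene span and 239 without predicted and clone names. The 1317 genes at least 2-fold lower became 2179 and 841 with these floors, 844 in loci under 100 kb, 561 in loci held by 1 gene, 864 adjusted for RefSeq gene span and 797 without predicted and clone names. In each of these settings more genes were lower than higher, with the lower share between 60.8% and 76.9%. A q-value of 0.01 in the authors' deposited table left 2183 of 3329 calls.

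List medians outside their 95% order-statistic interval were leptotene and zygotene with a floor of 5 FPKM (0.0159), leukocytes adjusted for locus span (0.55), immediate early genes adjusted for span (0.0385) and cell cycle genes adjusted for span and level (0.0111) or RefSeq span (0.0424). The histones gave 0.42 with a pseudocount of 1 FPKM, 0.16 adjusted for span and 0.32 adjusted for span and level. Adjustments for span, and leaving out names, were added after the data were seen. Of 306 named genes, 47 went under 2-fold and 9 above it when adjusted for span, 43 and 7 when adjusted for span and level, and 51 and 0 with a pseudocount of 1 FPKM, and no 2-fold gene changed sign. Depth is unknown, so genes near 1 FPKM are the least certain.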

Other observations

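Some other gene groups had medians near level. The 28 hypoxia and glycolysis genes had a median log2 difference of 0.08 and none was 2-fold apart. Pkm, the pyruvate kinase of most tissues, was at 232 and 235 FPKM, Eno1 at 342 and 363 FPKM and Ankrd37, a hypoxia target, at 5.46 and 10.4 FPKM. Chaperones of the heat shock and unfolded protein response (16 used of 17) had a median of 0.15, which turned to -0.17 adjusted for locus span. Hsp90ab1 was at 3167 and 2622 FPKM, Hspb1, a small heat shock protein, at 104 and 194 FPKM and Ddit3, a stress transcription factor, at 26.7 and 46.7 FPKM. Genes of nerve and glia (9 used of 14) had a median of 0.24, with Sox10, which specifies glia, at 2.22 and 1.09 FPKM. Kinesins named by symbol (33 genes, chosen after the values were seen) had a median of -0.16, or -0.05 adjusted for locus span. Of these 33, 3 (9.09%, near the 7.56% of all genes) were at least 2-fold lower and none was at least 2-fold higher.

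Some abundant genes have no test in the deposited table. The status was FAIL in 197 rows at day 3, against 24, 12 and 32 in the pre-meiotic, leptotene/zygotene and pachytene tables. Of the 197, 27 reached 100 FPKM in at least 1 library. The median locus span of all 197 rows was 88622 bases, beside 26314 bases among the genes used. Grb10, an imprinted growth regulator, was at 258 and 101 FPKM and Tpm1, a tropomyosin, at 555 and 536 FPKM.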
